A study of Rattus norvegicus with 18 samples.

Results

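Glutathione transferases join glutathione to reactive or foreign molecules, and Gpx3, the glutathione peroxidase found in plasma, uses glutathione to remove peroxides. The genes described here were 9 transferases (Gstm1, Gstm2, Gstm4, Gstp1, Gstt1, Gstt2, Gstk1, Gsto1 and Mgst1) and Gpx3, each found by its name in the deposited gene table, where a name with several rows was taken at the row with the most counts. Of these 10 genes, 9 had a row among the 30957 genes of the table and 8 had a count in at least 1 library. Gstm2 had no row under that name and is not analysed here. Gstt2 was listed at 0 in every library, within a run of 11 neighbouring rows on chromosome 20 that were all at 0, among them Mif and Smarcb1, which many cell types use, so nothing is said here of its level.

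The study followed rat kidney after ligation of the left ureter, a model of obstructive injury known as unilateral ureteral obstruction. RNA-seq libraries came from kidneys obstructed for 1 day (n = 5), 3 days (n = 5), 7 days (n = 5) and 14 days (n = 3). Every group carried the ligation, and sham-operated kidney was not analysed here, so each comparison is between durations of obstruction. The labels give no strain, sex or age, the same batch entry for all libraries, and the tissue as renal parenchyma. They do not tie libraries to animals, so a p-value here speaks of variation among libraries, and some of that may be technical.

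In the kidney, transferases of the mu, pi, theta, kappa, omega and microsomal classes differ in which cells hold them and in what they act on. The proximal tubule secretes Gpx3, a selenoprotein, and the kidney is the main source of the enzyme in blood. Several transferases belong to the genes that the factor NRF2 (Nfe2l2) switches on under oxidative or chemical stress. Filtered and locally made glutathione conjugates are trimmed on the tubule brush border and turned into mercapturates for the urine.

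Library totals ran between 5488540 and 12049915 counted reads, and 13991 genes were tested over the 15 libraries of 1, 3 and 7 days. Nephron markers were present: 17 of the 17 proximal tubule markers found in the table stood above 1 FPKM (fragments scaled to gene length and library size) in all 15 libraries, and so did 10 of 10 collecting duct markers. The 3 libraries labelled 14 days stood apart. Havcr1 and Spp1, which injured tubules make, were at 0.317 to 7.45 and 36.8 to 258 FPKM there, against 188 to 1040 and 5641 to 15440 FPKM in the other 15. These libraries also differed from each other. Collecting duct markers summed to 1829 and 1548 FPKM in replicates 1 and 3, and proximal tubule markers to 7478 FPKM in replicate 2. The collecting duct list went both ways in replicate 3. There Aqp2, Aqp3 and Fxyd4 stood at 777, 466 and 237 FPKM, whereas Scnn1b, Scnn1g and Atp6v0d2 were under 1 FPKM. Adipocyte markers summed to 2232 FPKM in replicate 3, and urothelium markers to 282 FPKM in replicate 1. Replicate 5 at 1 day was also unlike its group, with summed collecting duct markers of 1037 FPKM, mostly from Aqp2 and Aqp3 (371 and 380 FPKM). Its adipocyte and urothelium markers summed to 140 and 91.0 FPKM, the highest of its group. Comparisons among 1, 3 and 7 days therefore come first and leave the libraries labelled 14 days out of the fit.

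The members spanned a wide range of levels. Gpx3 was the most abundant of them per unit length in every group, and in single libraries it ranked between place 6 and place 18 of all genes by FPKM at 1, 3 and 7 days. Gstp1, the pi-class transferase, was next, with means between 252 and 386 FPKM at these durations. Gstm1, a mu-class enzyme, came after Gstp1 at 1 day and after both Gstp1 and Mgst1 at 3 and 7 days. Mgst1 is the microsomal transferase of the endoplasmic reticulum and outer mitochondrial membrane. Gstt1 and Gsto1 lay between 38.2 and 51.6 FPKM on average, Gstk1 between 25.4 and 34.4 FPKM and Gstm4 between 16.9 and 24.6 FPKM over the same groups. Gpx3 overlapped no other member within any of these groups. Of neighbours in this order, Gstp1 and Gstm1 overlapped at 1 day, as did Gstm1 and Mgst1. At 3 days Mgst1 and Gstm1 overlapped, with 124 FPKM as the lowest of Mgst1 and 125 FPKM as the highest of Gstm1, and at 7 days they did not. Gstm1 and Gsto1 overlapped at 3 and 7 days, Gstt1 and Gsto1 in all 3 groups, and Gstt1 and Gstk1 at 3 and 7 days. Gstk1 lay clear of Gstm4 at 3 and 7 days but not at 1 day.

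**Figure D1:**
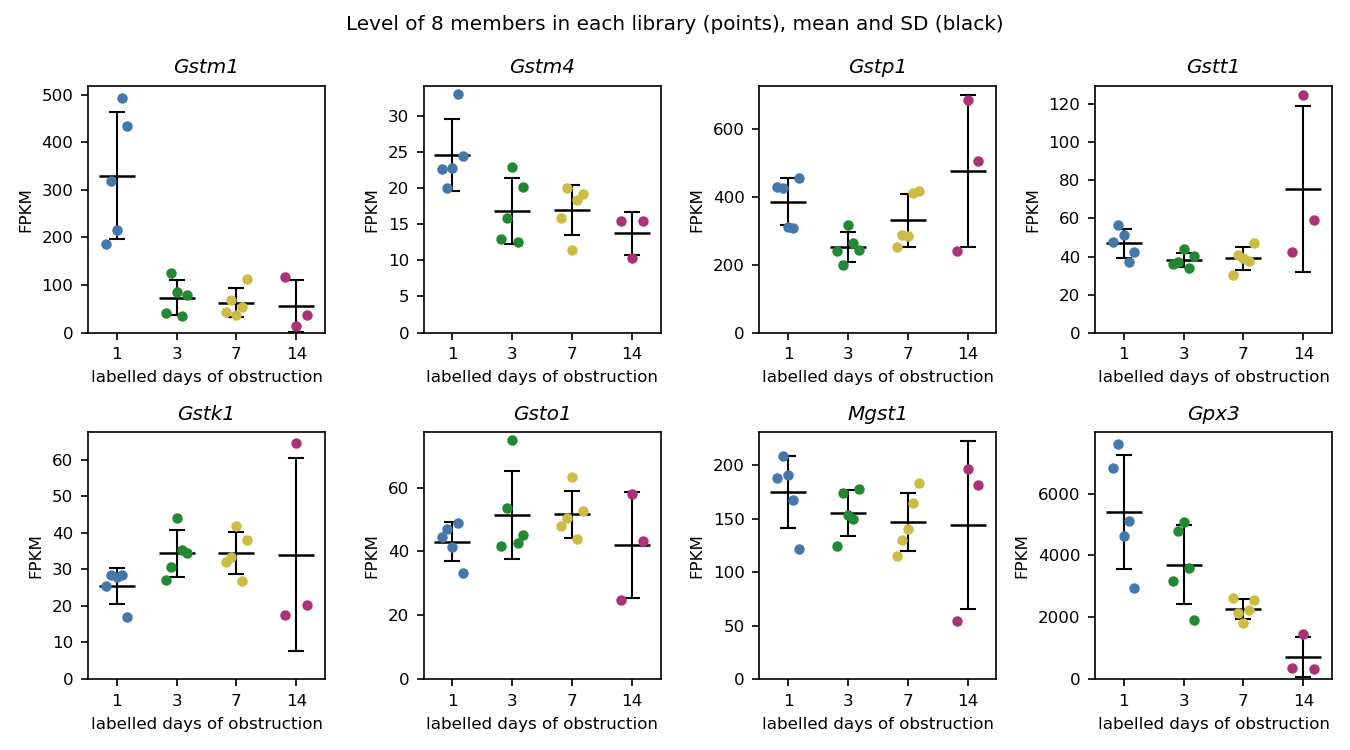
Level of the 8 members with counts in each library, in FPKM on linear axes from 0, by labelled days of obstruction (points are libraries; black bars are the mean and SD; n = 5, 5, 5 and 3). Gstm1 sits between 186 and 493 FPKM at 1 day and between 35.2 and 125 FPKM at 3 and 7 days, and Gpx3 sits between 1811 and 2616 FPKM at 7 days, under every library of 1 day.

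Gstm1 and Gstm4 encode mu-class transferases, cytosolic enzymes that act on epoxides and other electrophiles, and their rows lie next to each other on chromosome 2, both on the minus strand (210803869 to 210809306 for Gstm1 and 210833884 to 210839295 for Gstm4, in the table's own coordinates, whose build is not given in the sources used here). The 250 bases before each start are shown because both genes were lower at 7 days than at 1 day while the size of the change differed. They come from RefSeq on build GRCr8, at chr2:198343384-198343633 and chr2:198373384-198373633, minus strand, and read 5′ to 3′. Capitals mark matches to any of the 5 motifs searched on both strands: TGACNNNGC (the core of the antioxidant response element that NRF2 binds), TGACTCA (AP-1), GCGTG (dioxin response element core), TATAAA (a core promoter box) and the HNF1 motif.
Gstm1: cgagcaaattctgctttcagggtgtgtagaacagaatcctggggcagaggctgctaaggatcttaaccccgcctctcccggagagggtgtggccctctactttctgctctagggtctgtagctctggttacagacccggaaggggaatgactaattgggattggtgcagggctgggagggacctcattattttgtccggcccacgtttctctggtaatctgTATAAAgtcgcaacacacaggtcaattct
Gstm4: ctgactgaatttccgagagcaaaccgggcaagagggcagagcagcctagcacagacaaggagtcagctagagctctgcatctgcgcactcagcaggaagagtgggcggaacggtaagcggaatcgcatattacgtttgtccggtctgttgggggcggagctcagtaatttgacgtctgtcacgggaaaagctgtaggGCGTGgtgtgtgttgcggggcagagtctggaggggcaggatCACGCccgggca
The Gstm1 window holds TATAAA 29 bases before the start, a run of letters present in 12.9% of the 33465 rat windows of the same length. The Gstm4 window holds GCGTG once on each strand, 53 and 12 bases before the start, and 25.9% of all windows hold it. Neither window holds the antioxidant response element core, which 10.1% of all windows hold. A match is a run of letters, not a tested site.

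Of the 8 members tested, Gstm1 had the largest change at 3 and 7 days against 1 day. It fell at 3 days of obstruction to a fitted 0.221 of its 1-day level, and the 7-day level was 0.180 of it. In the 5 libraries of 1 day it stood at 186, 319, 217, 493 and 433 FPKM. In those of 3 days it stood at 41.4, 125, 84.9, 35.2 and 78.4 FPKM, and in those of 7 days at 43.3, 69.0, 37.0, 52.7 and 113 FPKM. Every library of 3 and 7 days was below every library of 1 day, whereas the 3-day and 7-day values overlapped. At 3 days against 1 day the log2 fold change was -2.17 ± 0.41 (SE; 95% interval -3.04 to -1.31; edgeR quasi-likelihood test, adjusted p = 0.00554). At 7 days against 1 day it was -2.48 ± 0.41 (edgeR, adjusted p = 0.000434), and at 7 days against 3 days -0.30 ± 0.39 (edgeR, adjusted p = 0.673). Both differences from 1 day passed in all 21 alternatives run for them.

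Gstm4 had a smaller difference in the same direction. It stood at 22.7, 20.0, 22.8, 33.0 and 24.4 FPKM at 1 day, at 12.9, 15.9, 22.9, 12.5 and 20.2 FPKM at 3 days, and at 15.8, 19.9, 11.4, 18.4 and 19.2 FPKM at 7 days. The 7-day libraries were all below the 1-day libraries, though the nearest pair, 19.9 and 20.0 FPKM, almost touched, and the 3-day libraries overlapped both. Gstm4 fell at 7 days against 1 day (log2 fold change -0.63 ± 0.20 SE; edgeR, adjusted p = 0.0256), while at 3 days against 1 day its log2 fold change of -0.55 ± 0.20 did not pass (edgeR, adjusted p = 0.0968). The 7-day call was lost without 1-day replicate 4 (adjusted p = 0.0679), 7-day replicate 1 (0.0510) or 7-day replicate 3 (0.0623), all by edgeR. Within a library, the ratio of Gstm1 to Gstm4 FPKM had a median of 15.0 at 1 day (8.22 to 17.7), 3.71 at 3 days (2.81 to 7.88) and 3.25 at 7 days (2.74 to 5.88). All 10 later ratios lay below all 5 of 1 day. Mu-class genes are close copies, so the authors' counting could have split reads among them: the neighbouring row named Gstm7 spans 62153 bases and covers the rows of Gstm6, Gstm6l and Gstm3.

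Gstp1, the pi-class transferase that also binds and restrains stress kinases, lies at 219291679 to 219294147 on the minus strand of chromosome 1 in the table. Its upstream window is shown because it is the only one of the 4 printed here with a match to the antioxidant response element core. It comes from RefSeq on build GRCr8 at chr1:210769706-210769955, minus strand, with the same meaning of capitals.
Gstp1: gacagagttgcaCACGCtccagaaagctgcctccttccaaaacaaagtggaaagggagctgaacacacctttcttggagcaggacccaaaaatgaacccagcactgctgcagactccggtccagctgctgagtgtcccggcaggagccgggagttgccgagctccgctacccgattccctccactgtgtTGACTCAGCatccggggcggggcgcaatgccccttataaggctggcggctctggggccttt
The run TGACTCAGC, 61 bases before the start, matches the antioxidant response element core and the AP-1 motif at once, since the motifs overlap there. TGACTCA alone is present in 4.05% of all windows. The other capitals are GCGTG on the opposite strand, 238 bases before the start.

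Gstp1 fell at 3 days against 1 day, and its 7-day mean lay between those of the other groups. Its levels were 428, 426, 311, 309 and 456 FPKM at 1 day, 240, 198, 317, 264 and 243 FPKM at 3 days, and 252, 288, 285, 411 and 416 FPKM at 7 days. Of the 3-day libraries 4 lay below all of 1 day and replicate 3 lay inside that range, so the groups overlapped, and the 7-day libraries overlapped both. The log2 fold change at 3 days against 1 day was -0.63 ± 0.18 SE (edgeR, adjusted p = 0.0369). That call was lost when 1-day replicate 1, 2 or 5 or 3-day replicate 1, 2, 4 or 5 was left out, with edgeR adjusted p between 0.0509 and 0.0830, and with all 18 libraries in the fit (0.237), so it is close to the threshold. At 7 days against 3 days the log2 fold change was 0.31 ± 0.18 (edgeR, adjusted p = 0.279), and at 7 days against 1 day -0.32 ± 0.18 (edgeR, adjusted p = 0.169).

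Gpx3 lies at 40247436 to 40255422 on the plus strand of chromosome 10 in the table. Its upstream window from RefSeq, build GRCr8, chr10:39529085-39529334, plus strand, is shown because Gpx3 was the most abundant member and was lower with duration. The capitals have the same meaning.
Gpx3: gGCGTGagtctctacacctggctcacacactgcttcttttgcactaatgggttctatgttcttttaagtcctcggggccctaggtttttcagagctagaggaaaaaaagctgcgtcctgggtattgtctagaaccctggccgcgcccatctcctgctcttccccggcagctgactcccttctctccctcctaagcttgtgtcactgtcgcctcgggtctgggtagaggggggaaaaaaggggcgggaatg
The single match is GCGTG, 249 bases before the start, and no window printed here holds the HNF1 motif, which 0.323% of all windows hold.

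Gpx3 fell by 7 days of obstruction, to a fitted 0.390 of the 1-day level, and its 3-day mean lay between. The means were 5414 ± 1846, 3705 ± 1289 and 2269 ± 329 FPKM at 1, 3 and 7 days (SD, n = 5 each). It stood at 6821, 7599, 4616, 5098 and 2936 FPKM at 1 day, at 3171, 4783, 5094, 3578 and 1900 FPKM at 3 days, and at 2616, 2122, 1811, 2245 and 2552 FPKM at 7 days. Every 7-day library was below every 1-day library, while the 3-day libraries overlapped both other groups. The log2 fold change at 7 days against 1 day was -1.36 ± 0.29 SE (95% interval -1.97 to -0.75; edgeR, adjusted p = 0.00209). At 3 days against 1 day it was -0.56 ± 0.28 (edgeR, adjusted p = 0.208), and at 7 days against 3 days -0.79 ± 0.28 (edgeR, adjusted p = 0.0898). The last difference passed with DESeq2 (adjusted p = 0.0398) and with edgeR without 3-day replicate 5 (adjusted p = 0.0429). Counts on Gpx3 alone made up 0.431% to 1.12% of a library at 1 day, 0.279% to 0.748% at 3 days and 0.266% to 0.384% at 7 days.

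Proximal tubule markers, the genes of the cells that make Gpx3, did not show the same order of durations. Their summed level over 17 genes was 533 to 1407 FPKM at 1 day, 992 to 4909 FPKM at 3 days and 747 to 2884 FPKM at 7 days. Of the 17 tested, 3 rose and 1 fell at 7 days against 1 day, where 38.2% of all genes were called. Slc34a1, the phosphate carrier of this segment, rose (409 ± 256 FPKM at 7 days and 111 ± 72.5 FPKM at 1 day; SD, n = 5 each; edgeR, adjusted p = 0.0424), and Slc4a4, its bicarbonate carrier, fell (19.5 ± 12.5 FPKM at 7 days and 58.4 ± 23.2 FPKM at 1 day; edgeR, adjusted p = 0.00523). Macrophage and leukocyte markers moved with the 7-day group: 9 of 11 tested rose against 1 day and none fell, and their sum was 183 to 699 FPKM at 7 days, against 82.5 to 165 FPKM at 1 day. Fibroblast and smooth muscle markers did likewise, with 8 of 9 risen and sums of 651 to 950 FPKM at 7 days, against 185 to 286 FPKM at 1 day. Their part in the lower share of Gpx3 and Gstm1 was not tested. In whole kidney, fewer cells of a type and less RNA per cell cannot be told apart.

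**Figure D2:**
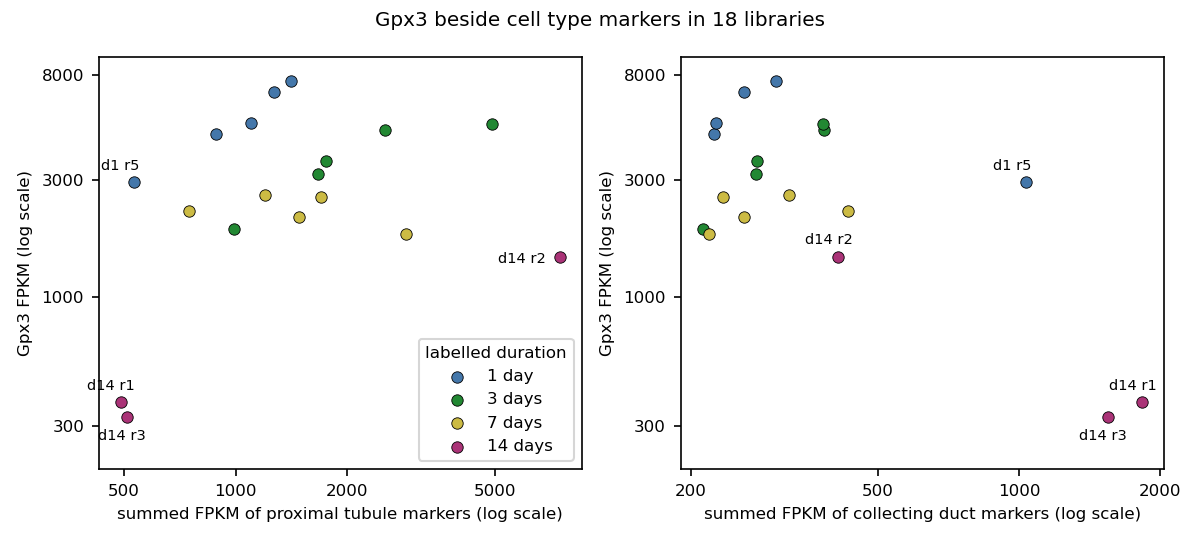
Gpx3 level against the summed level of 17 proximal tubule markers (left) and 10 collecting duct markers (right) in 18 libraries, both axes in FPKM on log scales, coloured by labelled duration, with the libraries that stand apart named. The 7-day libraries lie below all 1-day libraries in Gpx3 while their proximal tubule sums of 747 to 2884 FPKM overlap those of 1 day.

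Library by library, Gpx3 and the proximal tubule sum put the 5 libraries of a group in the same order at 1 day and at 3 days, and not at 7 days. The 1-day library with the lowest sum, replicate 5, also had the lowest Gpx3, and the 3-day libraries with the lowest and highest sums had the lowest and highest Gpx3. Among the 7-day libraries, the one with the highest sum had the lowest Gpx3. With 5 libraries a group no correlation is given. The log2 fold change of Gpx3 at 7 days against 1 day ran between -1.52 and -1.19 over 21 alternatives, those leaving out single libraries included, and passed in all 21.

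The other 4 members with counts did not pass in any comparison among the first 3 durations. Gstt1, a theta-class enzyme that acts on small halogenated molecules, had means of 46.9 ± 7.59, 38.2 ± 3.88 and 39.0 ± 6.08 FPKM at 1, 3 and 7 days (SD, n = 5 each). Its log2 fold change at 7 days against 1 day was -0.36 ± 0.15 SE (edgeR, adjusted p = 0.0647), and it passed in 4 of 21 alternatives. Mgst1 had 175 ± 33.5, 156 ± 21.5 and 147 ± 27.4 FPKM at 1, 3 and 7 days (SD, n = 5 each), with a log2 fold change of -0.35 ± 0.17 SE at 7 days against 1 day (edgeR, adjusted p = 0.116). Without 1-day replicate 5, the lowest of the 1-day libraries at 121 FPKM, that difference passed (-0.47; edgeR, adjusted p = 0.0193).

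Gstk1, the kappa-class enzyme of mitochondria and peroxisomes, and Gsto1, the omega-class enzyme that reduces dehydroascorbate, lay on the other side of 0. Gstk1 had 25.4 ± 4.94, 34.3 ± 6.38 and 34.4 ± 5.76 FPKM and Gsto1 43.0 ± 6.15, 51.5 ± 13.8 and 51.6 ± 7.33 FPKM at 1, 3 and 7 days (SD, n = 5 each). Their log2 fold changes at 7 days against 1 day were 0.35 ± 0.19 for Gstk1 (edgeR, adjusted p = 0.155) and 0.18 ± 0.18 for Gsto1 (edgeR, adjusted p = 0.478). Gstk1 passed only with limma on log2(FPKM + 1) and log2(FPKM + 0.1), where its adjusted p was 0.0454 and 0.0452. Gsto1 shares its position with Gsto2 on the same strand, whose row held 149 counts over all libraries against 10172 for Gsto1.

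Counted together, 2 of the 8 tested members were called at 3 days against 1 day, Gstm1 and Gstp1, both lower. Over all genes 10.5% were called in either direction and 5.13% were called lower. The members' median log2 fold change was -0.43, and that of all genes -0.02. For 7 days against 1 day, 3 of 8 were called lower (Gstm1, Gstm4 and Gpx3), against a background of 38.2% called and 20.2% called lower, and the median was -0.36, against 0.00 over all genes. For 7 days against 3 days edgeR called 0 of 8, with 1 at an unadjusted p under 0.05, DESeq2 called 1 and limma 0. Over all genes edgeR called 7.99% (1118 genes), DESeq2 1963 genes and limma on log2(FPKM + 1) 1123 genes. A test of any difference among 1, 3 and 7 days called 4 of 8 (Gstm1, Gstm4, Gstp1 and Gpx3), against 34.4% of all genes. With levels rather than tests, 1 member did not overlap between 3 days and 1 day and 3 did not overlap between 7 days and 1 day, all lower, where 3.14% and 7.05% of all tested genes were lower without overlap.

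**Figure D3:**
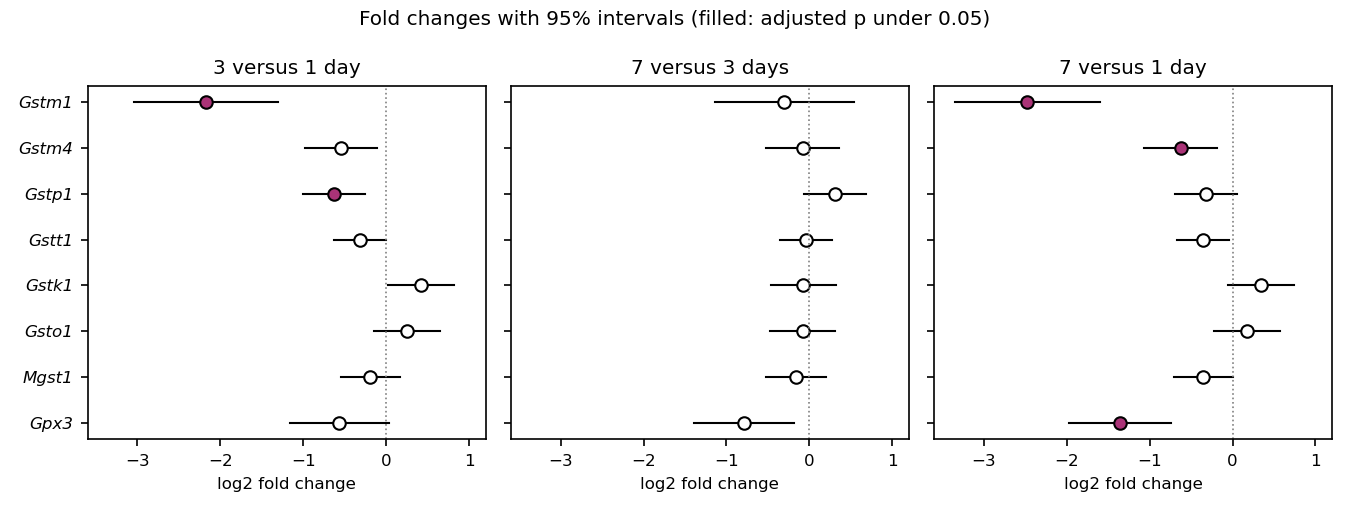
Log2 fold changes of the 8 tested members (points) with 95% intervals (lines) at 3 days against 1 day, 7 days against 3 days and 7 days against 1 day, from the edgeR fit on 15 libraries; filled points passed an adjusted p of 0.05. Gstm1 lies at -2.17 and -2.48 in the comparisons with 1 day, and no interval at 7 days against 3 days belongs to a called gene.

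The makeup of the transferase members differed between durations. Summed over the 7 of them with counts, and so without the other transferases of the table, the level was 1030 ± 121 FPKM at 1 day, 622 ± 81.6 FPKM at 3 days and 682 ± 131 FPKM at 7 days (SD, n = 5 each). Gstm1 made up 31.3% ± 9.93 of that sum at 1 day, 11.5% ± 5.23 at 3 days and 9.00% ± 2.91 at 7 days. Gstp1 made up 37.6% ± 6.54, 40.8% ± 6.27 and 48.2% ± 3.61 at the same durations, so among these 7 it was the largest share on average in each. At 1 day Gstm1 exceeded Gstp1 in replicate 4 alone, where the ratio of Gstp1 to Gstm1 was 0.626, and the ratios of the other 4 libraries ran between 1.05 and 2.30. In all libraries of 3 and 7 days Gstp1 exceeded Gstm1, with ratios of 1.59 to 7.51 at 3 days and 3.67 to 7.80 at 7 days. These shares are within-library values and are given as a description, with no test.

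**Figure D4:**
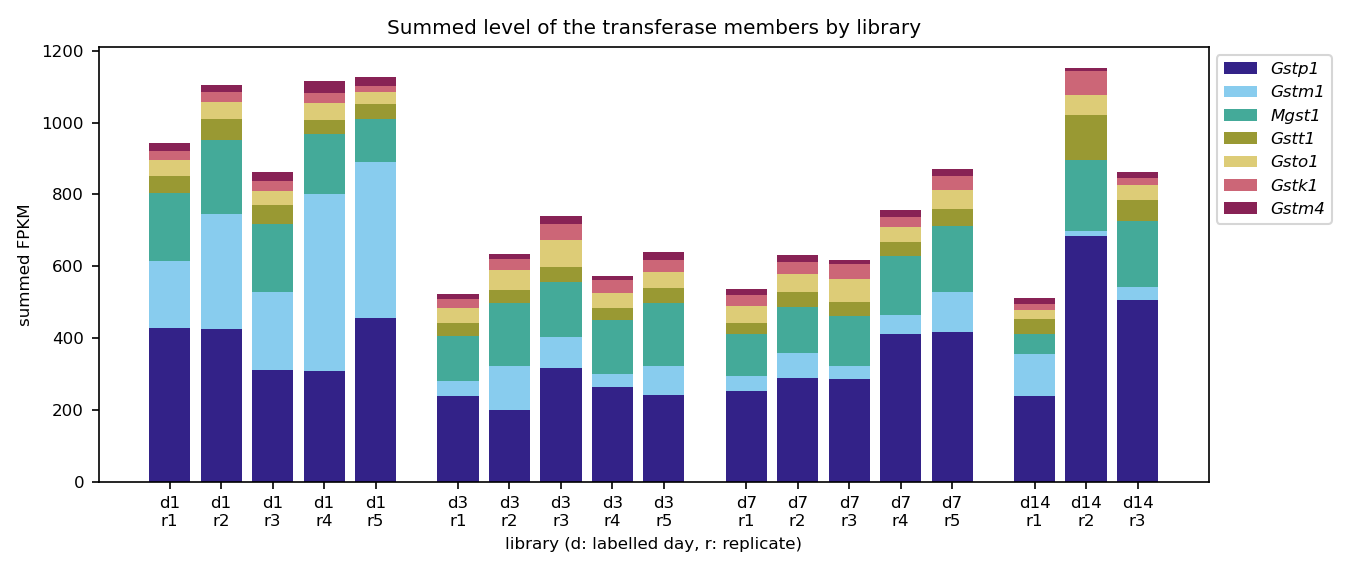
Summed FPKM of the 7 transferase members with counts in each of the 18 libraries, stacked by gene (d: labelled day, r: replicate). The Gstm1 segment is 19.8% to 44.2% of the column in the 1-day libraries and 5.99% to 19.7% in those of 3 and 7 days.

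Of the other glutathione transferases, 20 of 22 listed genes had a row and 11 were tested. Gsta5, an alpha-class enzyme, was the only one called: it rose at 3 days (91.9 ± 65.6 FPKM at 3 days and 23.3 ± 15.2 FPKM at 1 day; SD, n = 5 each; edgeR, adjusted p = 0.0461) and at 7 days against 1 day (78.5 ± 56.4 FPKM at 7 days; log2 fold change 1.68 ± 0.59 SE; edgeR, adjusted p = 0.0369). Both calls were lost with all 18 libraries in the fit. The list's median log2 fold change at 7 days against 1 day was 0.44, where 38.2% of all genes were called. Alpha-class genes are close copies and may share reads.

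Among the other glutathione peroxidases 5 of 7 were tested, and 3 of them changed at 7 days against 1 day, where 38.2% of all genes were called. Gpx2, the peroxidase of epithelial cytosol, fell in each of the 3 comparisons, with 261 ± 35.6, 159 ± 19.8 and 116 ± 12.6 FPKM at 1, 3 and 7 days (SD, n = 5 each). Its log2 fold change was -0.74 ± 0.10 SE at 3 days against 1 day (edgeR, adjusted p = 0.00127) and -1.26 ± 0.11 at 7 days against 1 day (edgeR, adjusted p = 7.3e-06). Gpx7 and Gpx8, the peroxidases of the endoplasmic reticulum, rose: Gpx7 stood at 15.0 ± 0.918 FPKM at 7 days and 4.21 ± 0.948 FPKM at 1 day, and Gpx8 at 28.0 ± 4.09 FPKM at 7 days and 9.71 ± 2.97 FPKM at 1 day. Their log2 fold changes were 1.74 ± 0.17 and 1.42 ± 0.19 (edgeR, adjusted p = 1.8e-05 and 9.2e-05). Gpx1, the widespread cytosolic peroxidase, and Gpx4, which reduces lipid peroxides, did not pass, at 0.08 ± 0.15 and -0.20 ± 0.14. Gpx5 and Gpx6 were listed at 0.

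**Figure D5:**
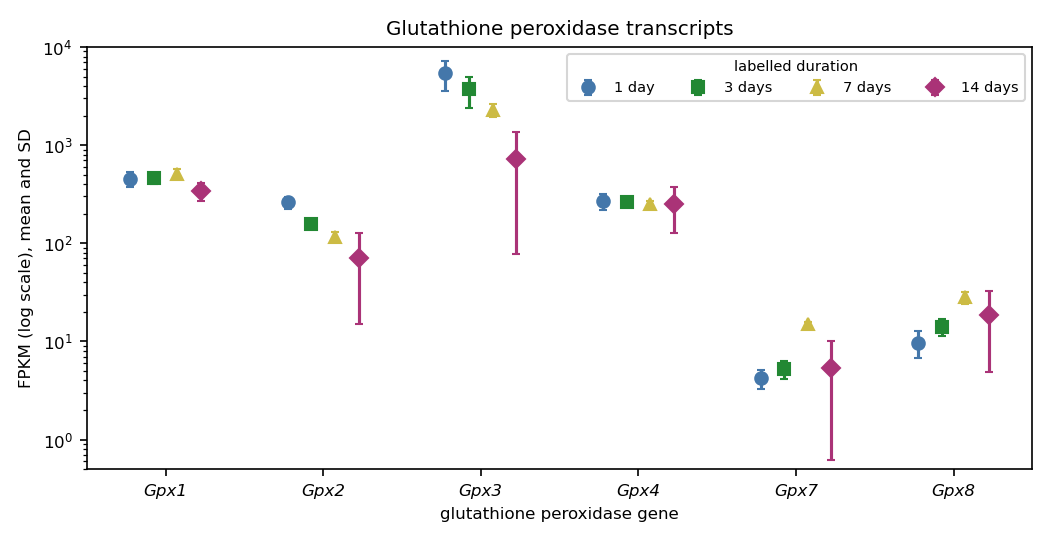
Mean FPKM (log scale) with SD of 6 glutathione peroxidase genes by labelled duration (n = 5, 5, 5 and 3 libraries). Gpx3 is the highest at every duration and, with Gpx2, stands lower at 7 days than at 1 day, whereas Gpx7 and Gpx8 stand higher and Gpx1 and Gpx4 close to their 1-day level.

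The genes that make and recycle glutathione changed in both directions. Of 22 tested, 2 rose and 3 fell at 3 days against 1 day, where 10.5% of all genes were called. At 7 days against 1 day 2 rose and 5 fell, where 38.2% of all genes were called. The medians were 0.13 and -0.04. Oplah, which returns 5-oxoproline to glutamate, rose to 83.4 ± 17.9 FPKM at 7 days, against 37.6 ± 9.25 FPKM at 1 day (SD, n = 5 each; edgeR, adjusted p = 0.00162). Slc3a2, a chain of the cystine carrier, fell to 128 ± 11.1 FPKM at 7 days, against 187 ± 21.2 FPKM at 1 day (edgeR, adjusted p = 0.000896). The subunits of the rate-limiting enzyme did not pass: Gclc had 163 ± 151 FPKM at 7 days and 66.1 ± 40.7 FPKM at 1 day (edgeR, adjusted p = 0.109), and Gclm 139 ± 81.6 FPKM at 7 days and 187 ± 40.8 FPKM at 1 day (edgeR, adjusted p = 0.296).

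For the processing and export of conjugates, 2 of 11 tested genes rose and 4 fell at 7 days against 1 day. The share called there among all genes was 38.2%. Acy1, an aminoacylase that acts on acetylated amino acids, rose to 247 ± 125 FPKM at 7 days, against 74.6 ± 25.8 FPKM at 1 day (SD, n = 5 each; edgeR, adjusted p = 0.00344). Of the 5 listed exporters 3 fell: Abcc2 (log2 fold change -1.53 ± 0.37 SE), Abcc3 (-0.36 ± 0.11) and Abcc4 (-0.85 ± 0.17), with edgeR adjusted p of 0.00509, 0.0173 and 0.00139. With all 18 libraries in the fit, 1 gene of this list was called at 7 days against 1 day, in place of 6.

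Several other genes of the NRF2 pathway fell. At 3 days against 1 day 3 of 13 tested fell (Hmox1, Srxn1 and Akr1b8) and none rose, with a median of -0.23, where 5.13% of all genes were called lower. The 7-day comparison with 1 day had 5 that fell and 1 that rose, with a median of -0.34, where 38.2% of all genes were called and 20.2% called lower. Hmox1, which breaks down haem, stood at 20.8 ± 5.46 FPKM at 7 days and 41.9 ± 11.0 FPKM at 1 day (SD, n = 5 each; edgeR, adjusted p = 0.00489). Srxn1, which repairs oxidised peroxiredoxins, stood at 4.40 ± 1.10 FPKM at 7 days and 11.9 ± 1.09 FPKM at 1 day (edgeR, adjusted p = 0.000135). Nqo1, a quinone reductase often read as a marker of NRF2 activity, did not pass, at 7.58 ± 0.391 FPKM at 7 days and 11.7 ± 8.42 FPKM at 1 day (edgeR, adjusted p = 0.116). Without 1-day replicate 5, 5 genes of this list were called at 3 days against 1 day and 9 at 7 days against 1 day, directions not given. Calls over all genes rose as well in that fit, to 2016 from 1473 and to 5841 from 5338.

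Selenium supply is relevant to Gpx3, whose active site is a selenocysteine. Of 19 tested genes for selenium supply and other selenoproteins, 3 rose and 1 fell at 7 days against 1 day, with a median of 0.07. Among all genes 38.2% were called in that comparison. Selenop, the plasma carrier of selenium, rose to 303 ± 76.9 FPKM at 3 days and 288 ± 57.6 FPKM at 7 days, against 111 ± 39.9 FPKM at 1 day (SD, n = 5 each; edgeR, adjusted p = 0.00544 and 0.00182). In the same comparisons the Gpx3 log2 fold changes were -0.56, which did not pass, and -1.36, which did.

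The genes whose levels followed each member most closely were sought over 10004 tested genes with a mean of at least 5 FPKM, by the root mean square difference of standardised log2(FPKM + 1) over the 15 libraries. For Gstm1 the nearest were Hspb1 (0.51), Hpx (0.52), Litaf (0.52), Asl (0.54) and Rbx1 (0.54). For Gpx3 they were Acad10 (0.42), Tsku (0.44), Ethe1 (0.47), Mcoln1 (0.47) and Slc3a2 (0.47). For Gstp1 they were Riok3 (0.58), Qtrt1 (0.61), Yars (0.61), MGC95208 (0.66) and LOC100911625 (0.67). With ranks in place of standardised values, 1 of 5 for Gstm1, 4 of 5 for Gpx3 and 3 of 5 for Gstp1 were named again, and Gstm4 was then among the 5 nearest to Gstm1. Hspb1, a small heat shock protein, stood at 316, 115 and 82.3 FPKM on average at 1, 3 and 7 days, and Acad10, an acyl-CoA dehydrogenase, at 18.2, 16.3 and 10.1 FPKM.

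In the 3 libraries labelled 14 days the members differed widely from library to library, and the values below describe those libraries as labelled. Gpx3 stood at 373, 1462 and 326 FPKM in replicates 1, 2 and 3. Each was below every library of the other durations; 26.6%, 19.8% and 20.9% of all genes were lower without overlap against 7, 3 and 1 day. Gstt1 stood at 42.2, 125 and 59.1 FPKM, Gstp1 at 239, 685 and 506 FPKM and Gstm1 at 118, 13.7 and 37.3 FPKM. For Gstt1 and Gstp1 replicate 2 was the highest, for Gstm1 it was the lowest, and the range of each overlapped that of the 7-day libraries. Gstk1 stood at 17.4, 64.5 and 20.1 FPKM in the same order, while Gsto1 spanned 24.9 to 58.1 FPKM, Mgst1 53.9 to 196 FPKM and Gstm4 10.3 to 15.5 FPKM. Replicate 2 also had the highest summed proximal tubule markers (7478 FPKM, against 490 and 509 FPKM in replicates 1 and 3). Single markers of that list went both ways in it. Kap and Slc7a13, at 2214 and 1764 FPKM, made up much of the sum. Slc5a2, Slc5a12 and Slc4a4, at 6.30, 0.588 and 1.13 FPKM, were below every library of 1, 3 and 7 days. Counts from mitochondrial genes made up 14.4% to 27.4% of the libraries labelled 14 days and 7.11% to 13.6% of all others. The part of these differences in the members' values was not tested.

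With the fit on all 18 libraries, 2 of 8 members were called at 14 days against 7 days, both higher: Gstt1 (log2 fold change 1.37 ± 0.31 SE; edgeR, adjusted p = 0.00303) and Gstp1 (0.92 ± 0.30; edgeR, adjusted p = 0.0258). The background was 38.3% called and 21.4% called higher. Gstp1 lost its call without the 14-day replicate 2 (0.34; edgeR, adjusted p = 0.287) and without 7-day replicate 1 (adjusted p = 0.0578) or 2 (adjusted p = 0.0517), while Gstt1 passed in all 19 alternatives, at 0.56 without the 14-day replicate 2. With limma on log2(FPKM + 1) Gstp1 did not pass either (0.43; limma, adjusted p = 0.224). Gpx3 had a log2 fold change of -1.17 ± 0.52 against 7 days and did not pass (edgeR, adjusted p = 0.0871). Without the 14-day replicate 2 it was at -2.50 and called lower (edgeR, adjusted p = 0.000221), and limma on log2(FPKM + 1) called it lower too (limma, adjusted p = 0.00179). Against 3 days, Gstt1 (1.33 ± 0.31) and Gstp1 (1.23 ± 0.30) were called higher and Gpx3 (-1.96 ± 0.54) lower, with edgeR adjusted p of 0.00533, 0.00717 and 0.0136, where 28.4% of genes were called. Without the 14-day replicate 2 the log2 fold changes there were 0.50 for Gstt1 and -3.31 for Gpx3, both still called. Without the same library Gstp1 had an adjusted p of 0.0531, and without the 14-day replicate 1 Gpx3 had 0.0613, both by edgeR.

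Against 1 day, Gstm1 (-2.38 ± 0.62 SE) and Gpx3 (-2.52 ± 0.56) were called lower and Gstt1 (1.02 ± 0.31) higher at 14 days, with edgeR adjusted p of 0.00847, 0.00331 and 0.0203, against a background of 32%. Without the 14-day replicate 2, Gpx3 was at -3.87, and Gstt1 was at 0.19 and did not pass (edgeR, adjusted p = 0.465). Gstk1 depended on that library in sign: its log2 fold change of 0.43 ± 0.40 at 14 days against 7 days turned to -0.69 without it (edgeR, adjusted p = 0.414 with and 0.0340 without). Fitting each 14-day comparison on its 2 groups alone left 1 member called against 7 days, Gstt1, and 0 against 3 days and 1 day by edgeR. There 3 and 4 members had an unadjusted p under 0.05. On all 18 libraries DESeq2 called 3 and 4 members in these comparisons, of 4666 and 5076 genes called in all. Limma on log2(FPKM + 1) called 3 members in each, of 4340 and 4644 genes. Against 1 day its 3 were not those of edgeR. Gstt1 did not pass (0.54, limma, adjusted p = 0.102), and Gstm4 was called lower (-0.80, limma, adjusted p = 0.0115). The Gstt1 call against 1 day was also lost with the replicate block (0.83, edgeR, adjusted p = 0.0519).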

How the data were processed

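RNA was enriched for poly(A) and read from random hexamer cDNA, per the labels' protocols. The deposited table, covering all 18 libraries, holds raw read counts per gene and FPKM values that the authors computed, per the file headers. Tools named in the submitters' processing notes are fastp 0.19.7 and HISAT2 2.0.4. Which tool, strand setting, annotation and genome build the counting used is not given in these sources.

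Counts were tested with edgeR 4.0.16 (quasi-likelihood, TMM factors, genes kept by a minimum count of 10 and total of 15, Benjamini-Hochberg over all tested genes, called at an adjusted p under 0.05) in R 4.3.3. The 15 libraries of 1, 3 and 7 days formed 1 fit, and all 18 libraries, with 14511 genes tested, formed the fit for comparisons with 14 days. Alternatives used DESeq2 1.42.0, limma 3.58.1 on log2(FPKM + 1) and log2(FPKM + 0.1), RLE and upper-quartile factors, no filter or 50 counts, mitochondrial genes left out, a replicate block, other sets of libraries, and each library left out in turn. The script was tested on simulated counts with 200 changed genes. Sequences came from RefSeq on GRCr8, where 8 of the 10 members matched by symbol.

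All members are named. Of each gene list, up to 4 called genes with the largest change and a mean of at least 5 FPKM were eligible to be named, or, in a list with no call, the 2 of lowest p. Chac1 was called but not named above by that rule, and some called genes of the lists are not reported here; Gclc, Gclm, Nqo1, Gpx1 and Gpx4 are named for their roles, after their values were seen. The members, the lists and the leaving out of the libraries labelled 14 days from the first fit were chosen with earlier results of these data known, so their directions are not independent support. Intervals cover variation between libraries.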

Additional observations from a re-analysis of the deposited data

Results flagged for a closer look

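The 8 tested members at 1, 3 and 7 days gave 24 sets of 5 libraries, and 1 set held a library far from the rest. Gstk1 at 1 day stood at 16.9 FPKM in replicate 5, against 25.5 to 28.4 FPKM in the other 4. On the scale of log2(FPKM + 1), the gap to its nearest neighbour was 0.795 of the group's range. Chance gives about 1 such set in 20. The same library had the lowest proximal tubule marker sum of its group (533 FPKM) and the highest collecting duct sum (1037 FPKM), and the part of this in Gstk1 was not tested.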

How the results depend on the processing

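Over 960 member fold changes recomputed under the alternatives, 895 kept their side of the threshold, 33 lost a call and 30 gained one. The remaining 2 reversed with a call on 1 side. A change of sign with no call on either side is counted within the 895, so these did not all keep their direction. Gstm1 at 14 days against 7 days, for example, ran between -1.59 and 0.52 over 19 alternatives. The 2 reversals were Gstk1 without the 14-day replicate 2, at -0.69 against 7 days and -0.77 against 3 days (up to 0.78 and 0.70 with single other libraries left out); the cause was not tested.

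DESeq2 called 2216 genes at 3 days against 1 day and 1963 at 7 days against 3 days, against 1473 and 1118 by edgeR, and 1 member in the second. With all 18 libraries in the fit, 329 genes at 3 days against 1 day, 152 at 7 days against 3 days and 2857 in the test of any difference were called, with 1 member in the first and 1 in the last. For the lists, chosen as an alternative after seeing the data, that fit called 2 genes of glutathione synthesis at 3 days against 1 day, in place of 5, 1 of conjugate processing, in place of 4, 1 of selenium supply, in place of 3, and 0 of the other peroxidases, in place of 1. Each 14-day comparison on its 2 groups alone called 3153, 1851 and 1628 genes against 7, 3 and 1 day, with 1, 0 and 0 members. With replicate 2 as the sole library labelled 14 days, the log2 fold change of Gstk1 was 1.51 against 7 days and 1.87 against 1 day. That of Gpx3 against 1 day was -1.37. A group of 1 library has no spread of its own and was assumed to vary like the other groups, so calls from that fit are not given.

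Leaving out single libraries gave 775 to 2016 genes and 1 to 3 members at 3 days against 1 day. At 7 days against 3 days it gave 324 to 1295 genes and 0 to 1 members. At 7 days against 1 day it gave 4437 to 5841 genes and 2 to 5 members. The test of any difference then called 3861 to 5502 genes and 2 to 4 members. Leaving out single libraries for 14 days gave 4559 to 7459 genes and 1 to 3 members against 7 days. Against 3 days it gave 2961 to 6720 genes, and against 1 day 3682 to 6405 genes and 2 to 5 members.

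Limma on log2(FPKM + 1) shifted the split of called genes. At 7 days against 1 day it called 3336 higher and 1921 lower, against 2513 and 2825 by edgeR; at 3 days against 1 day 747 and 459, against 755 and 718; at 7 days against 3 days 925 and 198, against 654 and 464. For 14 days the edgeR splits were 3102 and 2458, 2293 and 1826, and 2570 and 2076 against 7, 3 and 1 day, and those of limma 954 and 4894, 711 and 3629, and 962 and 3682. The median of all genes was then -0.26, -0.20 and -0.19, against 0.07, 0.07 and 0.06.

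Same-numbered libraries did not deviate together: the correlations of 15 pairs ran between -0.22 and 0.17, and 2 of 15 libraries matched their own number best. With the replicate block 1 member was called at 3 days against 1 day, and 2 in the test of any difference. Groups of 3 to 5 libraries, totals of 5488540 to 12049915 counts and shared reads among close copies limit what can be seen of single transferases.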
